A study of Mus musculus with 12 samples.

Results

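Regulatory T (Treg) cells recirculate through spleen and lymph nodes and enter tissues such as the gut by means of chemoattractant receptors and adhesion molecules on their surface. The genes described here are 9 such homing receptors: Ccr7, Ccr9, Cxcr4, Cxcr5, S1pr1, S1pr4, Gpr15, Gpr183 and Selplg. They were chosen by name, with earlier results of these data known, and all 9 have a transcript cluster (the set of probes for 1 gene on the array) with a single gene symbol among 22180 named genes. A gene with more than 1 transcript cluster is represented by the one that was brightest on average.

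The arrays hold RNA of CD4+YFP+ Treg cells sorted from spleen and lymph nodes, with 3 arrays for each of 4 genotypes. All 4 genotypes carry Cre recombinase and YFP expressed from the Foxp3 locus, so the controls carry the Cre as well, and the floxed genes are deleted only in cells that have expressed Foxp3. In the Lkb1 experiment, Treg cells of Foxp3Cre/+Lkb1f/f mice, in which both floxed alleles of Stk11 (Lkb1, a kinase upstream of AMPK) can be deleted, were compared with those of Foxp3Cre/+ mice, both labelled female. In the Tgfbr2 experiment, Treg cells of Foxp3CreTgfbr2 f/f mice, which lose TGF-β receptor 2, were compared with those of Foxp3Cre mice, both labelled male. Because Foxp3 is on the X chromosome, heterozygous females are mosaic, and their YFP+ cells shared the animal with Treg cells that used the intact allele. The labels give no treatment. Neither the age of the array mice nor whether an array held 1 animal or a pool is stated. The labels call the arrays biological replicates, and p-values measure the spread between these arrays.

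The receptors guide cells by gradients. CCR7 follows CCL19 and CCL21 into lymph nodes and the T cell zones, CXCR5 follows CXCL13 into B cell follicles, and GPR183 (EBI2) follows oxysterols to the edge of the follicle. CXCR4 binds CXCL12, which retains cells in bone marrow and lymphoid tissue, while S1PR1 reads sphingosine 1-phosphate and lets T cells leave lymph nodes. CCR9 binds CCL25 of the small intestine, GPR15 directs T cells to the large intestine, and PSGL-1, encoded by Selplg, is the ligand through which leukocytes roll on selectins.

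Values below are the deposited log2 values minus the median of the array they were measured on, so that 0 is the array's median transcript cluster. The 12 array medians fell into 2 sets, 5.48 to 5.60 on 8 arrays and 6.30 to 6.33 on 4 arrays. The 4 higher-intensity arrays were Foxp3Cre/+ replicate 3, Foxp3Cre/+Lkb1f/f replicate 3, Foxp3Cre replicate 3 and Foxp3CreTgfbr2 f/f replicate 1. On exactly these 4 arrays Xist, expressed from the inactive X chromosome of females, and Eif2s3y, a Y-linked gene, went against the labelled sex. Xist was 4.54 and 4.70 above the median on those labelled male, and Eif2s3y was 3.00 and 3.11 above it on those labelled female. The labels were kept, and the differences are also given without these 4 arrays, which leaves 2 against 2, and between the higher-intensity arrays alone, which is 1 against 1 with no test. Foxp3 itself was 5.59 to 5.88 on every array, and none of 14 Treg and T cell identity markers was below the array median on any array. With all arrays, Stk11 and Tgfbr2 overlapped between knockout and control, and without the 4 arrays each was lower in its own knockout. Stk11 was 2.96 and 2.90 on the lower-intensity Foxp3Cre/+ arrays and 2.68 and 2.33 on the Foxp3Cre/+Lkb1f/f arrays, while the higher-intensity arrays of these genotypes had 3.15 and 3.27. Tgfbr2 was 3.04 and 2.71 on the lower-intensity Foxp3Cre arrays and 2.51 and 2.31 on the Foxp3CreTgfbr2 f/f arrays, while the higher-intensity arrays had 3.48 and 3.55.

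Of the 9 receptors, Gpr15 was the 1 whose knockout arrays all lay below the control arrays in both experiments. The others overlapped between knockout and control when all arrays were used. Ccr7, Ccr9, Cxcr4, Cxcr5, S1pr1, Gpr183 and Selplg went 1 way on the lower-intensity arrays and the opposite way on the higher-intensity arrays in both comparisons. S1pr4 did so in the Tgfbr2 comparison. Such a change of sign was seen in 48.6% of named genes in the Lkb1 and 50.5% in the Tgfbr2 comparison. No receptor passed the test across all transcript clusters. By limma with Benjamini-Hochberg adjustment, 0% of 41345 transcript clusters had an adjusted p under 0.05 in the Lkb1 comparison, 0% in the Tgfbr2 comparison and 0% for the difference between the 2 knockout effects. At an unadjusted p under 0.05 there were 462, 706 and 406, respectively, among them Gpr15 in each knockout comparison and none of the receptors for the difference. The methods' t-test, unpaired and two-tailed, gave 675 and 902 at an unadjusted p under 0.05 and 0 after adjustment.

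**Figure D1:**
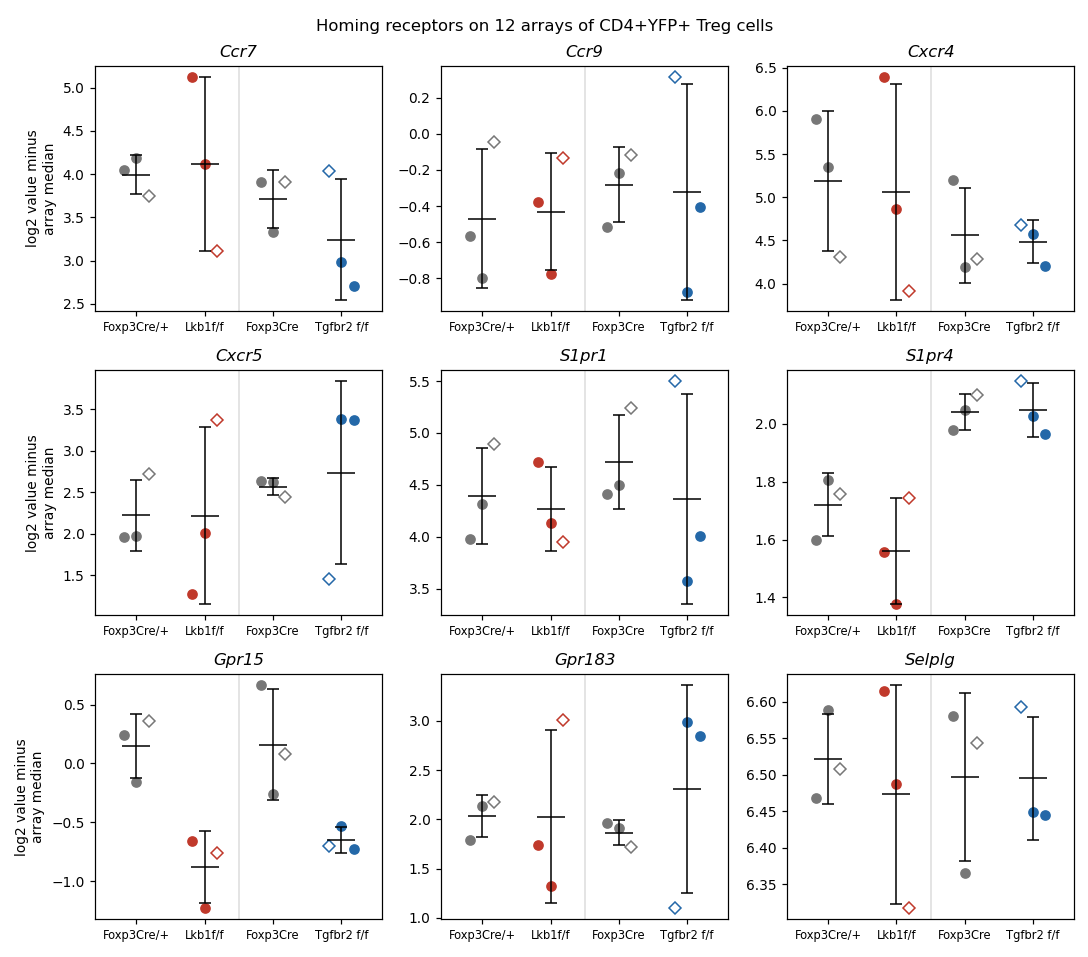
Log2 value minus array median (y axis, scale differs between panels) of the 9 receptors by genotype (x axis; Lkb1f/f and Tgfbr2 f/f stand for Foxp3Cre/+Lkb1f/f and Foxp3CreTgfbr2 f/f). Filled circles are the 8 lower-intensity arrays, open diamonds the 4 higher-intensity arrays whose sex-linked genes went against the label, and black bars the mean ± SD of 3 arrays. Gpr15 is lower on all 3 arrays of each knockout, whereas the knockout arrays of Cxcr5 and Gpr183 split into high and low.

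Gpr15 encodes a G protein-coupled receptor that brings Treg cells to the colon, and in mouse T cells its expression has been linked to TGF-β and to the aryl hydrocarbon receptor. On the Foxp3Cre/+ arrays Gpr15 was 0.24, -0.16 and 0.36, and on the Foxp3Cre/+Lkb1f/f arrays -0.66, -1.23 and -0.76. Every Foxp3Cre/+Lkb1f/f array was thus below every control array, and the Foxp3Cre/+Lkb1f/f arrays were below the array median. The difference was -1.03 ± 0.23 (SE, n = 3 against 3) on the log2 scale, 2.04-fold, with an unadjusted p of 0.0032 and an adjusted p of 1.00 by limma. On the Foxp3Cre arrays Gpr15 was 0.66, -0.26 and 0.08, and on the Foxp3CreTgfbr2 f/f arrays -0.70, -0.53 and -0.73. Here too the groups did not overlap, and the difference was -0.81 ± 0.24, 1.75-fold, with an unadjusted p of 0.012 and an adjusted p of 1.00 by limma. A two-sided exact permutation test gave 0.10 in each comparison, the smallest p that 3 against 3 arrays allow. Without the 4 arrays that went against their labelled sex the differences were -0.99 ± 0.28 and -0.83 ± 0.32, and between the higher-intensity arrays they were -1.12 and -0.78. Without Foxp3Cre replicate 1, the highest control, the Tgfbr2 difference was -0.56, which is under 1.5-fold. Both sets of arrays gave the same direction. The 2 effects differed by -0.22 ± 0.35 (adjusted p = 1.00 by limma).

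Gpr15 was 1 of 9 receptors whose knockout arrays all lay below the controls in the Lkb1 comparison, against 2.08% of all named genes, and 1 of 9 in the Tgfbr2 comparison, against 2.27%. No receptor had all knockout arrays above the controls, against 1.61% and 2.37% of named genes. In both experiments at once, 44 named genes (0.198%) lay below the controls on every array, Gpr15 among them. Gpr15 was also the 1 receptor lower by 1.5-fold or more in the Lkb1 comparison (1.69% of named genes) and in the Tgfbr2 comparison (0.424%), and none was higher by as much (0.559% and 0.167%). With 9 genes, a count of 1 is little to set against such shares. Values around the array median are dim, and a filter that keeps transcript clusters with a mean above it removes Gpr15 and Ccr9.

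The region around the Gpr15 start site is shown because Gpr15 carries the common direction, and that of Gpr183 because its differences have opposite signs in the sets of arrays described further on. Both are from RefSeq (GRCm38.p6), 250 bases before to 50 after the annotated start, 5′ to 3′ on the gene's strand, with matches to the searched motifs in capitals.
Gpr15, chr16:58718823-58719122, minus strand: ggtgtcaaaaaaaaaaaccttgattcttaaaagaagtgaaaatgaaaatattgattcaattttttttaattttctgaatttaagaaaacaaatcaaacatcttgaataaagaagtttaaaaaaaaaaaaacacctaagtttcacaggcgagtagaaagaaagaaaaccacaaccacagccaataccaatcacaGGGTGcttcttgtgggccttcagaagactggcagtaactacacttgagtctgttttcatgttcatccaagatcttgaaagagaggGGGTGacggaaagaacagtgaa
Gpr183, chr14:121965144-121965443, minus strand: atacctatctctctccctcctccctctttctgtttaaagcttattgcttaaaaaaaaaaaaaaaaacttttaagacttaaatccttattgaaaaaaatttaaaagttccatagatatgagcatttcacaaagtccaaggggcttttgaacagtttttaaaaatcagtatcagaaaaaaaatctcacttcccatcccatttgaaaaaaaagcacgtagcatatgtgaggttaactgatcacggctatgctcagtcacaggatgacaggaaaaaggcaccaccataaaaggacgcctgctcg
The motifs searched on both strands were CACCC, bound by Kruppel-like factors such as KLF2, GTAAACA, bound by forkhead factors such as FOXO1, GCGTG, the core bound by the aryl hydrocarbon receptor, and GTCTAGAC, the palindrome bound by Smad proteins of the TGF-β pathway. The Gpr15 window holds CACCC 2 times, read as GGGTG on the printed strand, at positions 194 and 279 counted from 1 at the 5′ end, and none of the other motifs. The Gpr183 window holds none of the 4 motifs. Windows of 3 further receptors were given. Those of Ccr9 and S1pr4 hold 1 CACCC each, and that of Cxcr4 holds 1 CACCC and 1 GCGTG. Among 32851 promoter windows of the same length, 57.5% hold CACCC, 32.4% GCGTG, 3.65% GTAAACA and 0.213% GTCTAGAC. The motifs are short, do not overlap in these windows and match by letters only.

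The aryl hydrocarbon receptor gene itself, Ahr, was lower in both knockouts. Ahr, a ligand-activated transcription factor that is linked to Gpr15 in gut lymphocytes, was 2.48, 3.02 and 2.59 on the Foxp3Cre/+ arrays and 1.40, 2.03 and 0.11 on the Foxp3Cre/+Lkb1f/f arrays. It was 2.88, 1.94 and 1.89 on the Foxp3Cre arrays and 0.99, 0.23 and 0.45 on the Foxp3CreTgfbr2 f/f arrays. The groups overlapped in neither experiment. The differences were -1.52 ± 0.47 (unadjusted p = 0.015) and -1.68 ± 0.32 (unadjusted p = 0.0013), each with an adjusted p of 1.00 by limma. Without the 4 arrays they were -1.03 and -2.07, and between the higher-intensity arrays -2.48 and -0.90. Gpr15 and Ahr thus had the same direction in each set of arrays, and whether 1 accounts for the other was not tested.

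Ccr7, Cxcr5, S1pr1 and Gpr183 varied more within the knockouts than between the genotypes. Ccr7 was 4.05, 4.19 and 3.75 on the Foxp3Cre/+ arrays, 5.12, 4.12 and 3.11 on the Foxp3Cre/+Lkb1f/f arrays, 3.90, 3.32 and 3.91 on the Foxp3Cre arrays and 4.04, 2.98 and 2.71 on the Foxp3CreTgfbr2 f/f arrays. In each knockout the arrays thus lay on both sides of the controls, with an SD of 1.01 and 0.70 against 0.23 and 0.34 in the controls. The differences on all arrays were 0.12 ± 0.48 and -0.47 ± 0.36 (adjusted p = 1.00 in both, limma).

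Cxcr5 was 1.97, 1.98 and 2.72 on the Foxp3Cre/+ arrays and 1.27, 2.01 and 3.38 on the Foxp3Cre/+Lkb1f/f arrays, with equal means of 2.22. It was 2.63, 2.62 and 2.45 on the Foxp3Cre arrays and 1.46, 3.38 and 3.37 on the Foxp3CreTgfbr2 f/f arrays. The SD was 0.43 and 0.10 in the controls and 1.07 and 1.10 in the knockouts, and the knockout arrays lay on both sides of their controls. The differences were -0.0020 ± 0.53 and 0.17 ± 0.50 (adjusted p = 1.00 in both, limma).

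Gpr183 showed the same spread. It was 1.79, 2.13 and 2.18 on the Foxp3Cre/+ arrays and 1.74, 1.33 and 3.01 on the Foxp3Cre/+Lkb1f/f arrays, and 1.96, 1.91 and 1.72 on the Foxp3Cre arrays against 1.10, 2.99 and 2.85 on the Foxp3CreTgfbr2 f/f arrays. The SD was 0.21 and 0.13 in the controls and 0.88 and 1.05 in the knockouts. S1pr1 was 3.98, 4.32 and 4.89 on the Foxp3Cre/+ arrays and 4.72, 4.13 and 3.95 on the Foxp3Cre/+Lkb1f/f arrays, and 4.42, 4.50 and 5.24 on the Foxp3Cre arrays against 5.50, 3.57 and 4.01 on the Foxp3CreTgfbr2 f/f arrays. The SD of S1pr1 was 0.46 and 0.45 in the controls and 0.40 and 1.01 in the knockouts, so it was not larger in the Lkb1 knockout. The differences of Gpr183 were -0.0080 ± 0.43 and 0.45 ± 0.48, and those of S1pr1 -0.13 ± 0.31 and -0.36 ± 0.50 (adjusted p = 1.00 in each, limma).

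Within a set of arrays these 4 receptors were less even. On the lower-intensity arrays, 2 against 2, the Foxp3CreTgfbr2 f/f arrays were above both controls for Gpr183 (0.98 ± 0.13, 1.97-fold) and Cxcr5 (0.75 ± 0.12, 1.68-fold) and below both for Ccr7 (-0.77 ± 0.24, 1.70-fold) and S1pr1 (-0.66 ± 0.18, 1.59-fold). The unadjusted p of these was 0.00065, 0.0016, 0.024 and 0.016, and the adjusted p by limma was 0.62, 0.66, 0.90 and 0.90. With Gpr15, 3 of 9 receptors were thus lower by 1.5-fold or more, where 0.861% of named genes were, and 2 of 9 were higher, where 0.663% were. In the Lkb1 comparison of the lower-intensity arrays the same 4 receptors had the opposite signs, 0.50 ± 0.36 for Ccr7, -0.33 ± 0.29 for Cxcr5, 0.28 ± 0.27 for S1pr1 and -0.43 ± 0.24 for Gpr183 (adjusted p = 1.00 in each, limma). Both knockout arrays lay below both controls for Gpr183, but Ccr7, Cxcr5 and S1pr1 overlapped. Knockout replicate 2 was between the controls for Ccr7 (4.12 against 4.05 and 4.19) and S1pr1 (4.13 against 3.98 and 4.32). For Cxcr5 it was above both (2.01 against 1.97 and 1.98), so these 3 signs came from knockout replicate 1. In this comparison 1 of 9 receptors, Gpr15, was lower by 1.5-fold or more (3.21% of named genes) and 0 of 9 were higher (1.02%).

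The higher-intensity arrays turned these signs around. Between the higher-intensity arrays labelled for the Lkb1 experiment the differences were -0.64 for Ccr7, 0.66 for Cxcr5, -0.94 for S1pr1 and 0.84 for Gpr183. Between those labelled for the Tgfbr2 experiment they were 0.13, -0.99, 0.26 and -0.63. Of the 9 receptors, 7 had opposite signs in the 2 sets of arrays in the Lkb1 comparison, against 48.6% of named genes, and 8 did in the Tgfbr2 comparison, against 50.5%. Gpr15 kept its sign in both comparisons and S1pr4 in the Lkb1 comparison.

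**Figure D2:**
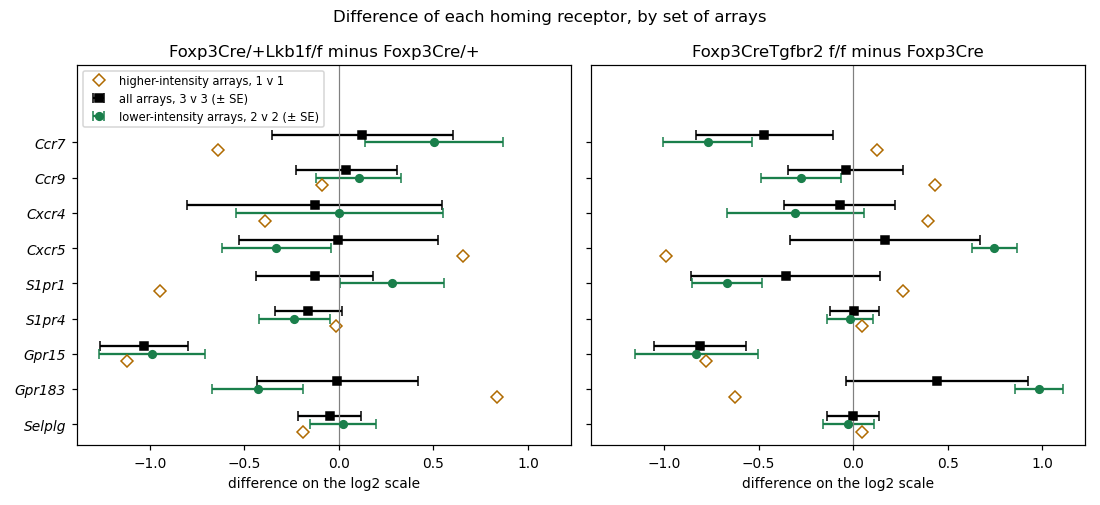
Difference of each receptor between knockout and control on the log2 scale (x axis), with all arrays (black squares, ± SE), on the lower-intensity arrays (green circles, ± SE) and between the higher-intensity arrays (open diamonds, 1 against 1, no error). For Ccr7, Ccr9, Cxcr4, Cxcr5, S1pr1, Gpr183 and Selplg the green circles and open diamonds stand on opposite sides of 0 in both panels. For Gpr15 all 3 symbols stand below 0.

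Set out by sex-linked genes in place of the labels, the knockout arrays read as follows, with no group formed from them. On the 3 knockout arrays with Xist above the array median (Foxp3Cre/+Lkb1f/f replicates 1 and 2, Foxp3CreTgfbr2 f/f replicate 1), Cxcr5 was 1.27, 2.01 and 1.46 and Gpr183 was 1.74, 1.33 and 1.10. On the 3 with Eif2s3y above it (Foxp3Cre/+Lkb1f/f replicate 3, Foxp3CreTgfbr2 f/f replicates 2 and 3), Cxcr5 was 3.38, 3.38 and 3.37 and Gpr183 was 3.01, 2.99 and 2.85. Ccr7 was 5.12, 4.12 and 4.04 on the former and 3.11, 2.98 and 2.71 on the latter, and S1pr1 was 4.72, 4.13 and 5.50 against 3.95, 3.57 and 4.01. For these 4 receptors, then, knockout arrays with opposite sex-linked signals did not overlap, whatever their label. For S1pr1 the nearest values were 4.13 and 4.01. Cxcr4 did not overlap on these knockout arrays, at 6.39, 4.87 and 4.68 against 3.92, 4.57 and 4.20. Nor did Selplg, at 6.62, 6.49 and 6.59 against 6.32, 6.45 and 6.44. Gpr15, Ccr9 and S1pr4 overlapped. On the control arrays set out likewise, Cxcr5 did not overlap either, at 1.97, 1.98 and 2.45 against 2.72, 2.63 and 2.62. Ccr7 there was 4.05, 4.19 and 3.908 against 3.75, 3.905 and 3.32, and Gpr183, S1pr1, Cxcr4 and Selplg overlapped. How many named genes separate in this way was not tested. The same knockout arrays, in the same order, had 2.68, 2.33 and 2.78 against 3.27, 3.03 and 3.33 for Stk11. For Tgfbr2 they had 3.14, 2.37 and 3.55 against 2.71, 2.51 and 2.31. Between these 2 sets of knockout arrays the deleted gene Stk11 thus did not overlap, and Tgfbr2 did. The control arrays with Xist above the median had 2.96, 2.90 and 3.05 for Stk11, above the knockout arrays with the same signal. Those with Eif2s3y above it had 3.25, 3.04 and 2.712 for Tgfbr2, against 2.711, 2.51 and 2.31 on the knockout arrays. Stk11 on the Eif2s3y arrays and Tgfbr2 on the Xist arrays overlapped between knockout and control. S1pr4 lay with the labels, at 1.56, 1.38 and 1.74 on the Foxp3Cre/+Lkb1f/f arrays and 2.15, 2.03 and 1.96 on the Foxp3CreTgfbr2 f/f arrays. Whether arrays were exchanged between the experiments was not tested.

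Both knockout effects were also tested against each other. With all 12 arrays none of the 9 receptors differed (adjusted p = 1.00 in each, limma), and the values were 0.59 ± 0.66 for Ccr7, -0.17 ± 0.80 for Cxcr5, 0.23 ± 0.64 for S1pr1 and -0.45 ± 0.71 for Gpr183. On the 8 lower-intensity arrays the Lkb1 effect minus the Tgfbr2 effect was 1.27 ± 0.49 for Ccr7, -1.08 ± 0.33 for Cxcr5, 0.95 ± 0.36 for S1pr1 and -1.41 ± 0.27 for Gpr183, with adjusted p between 0.52 and 0.97 by limma. The remaining 5 receptors were between -0.22 and 0.38.

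Cxcr4, S1pr4, Ccr9 and Selplg gave small differences with all arrays. Cxcr4 was 5.91, 5.35 and 4.31 on the Foxp3Cre/+ arrays and 6.39, 4.87 and 3.92 on the Foxp3Cre/+Lkb1f/f arrays, and 5.19, 4.19 and 4.29 on the Foxp3Cre arrays against 4.68, 4.57 and 4.20 on the Foxp3CreTgfbr2 f/f arrays. In the Lkb1 experiment replicate 1 was the highest and replicate 3, the higher-intensity array, the lowest in both genotypes. The SD was 0.81 and 0.55 in the controls and 1.25 and 0.25 in the knockouts. The differences were -0.13 ± 0.67 and -0.072 ± 0.29. On the lower-intensity arrays they were 0.0018 and -0.31, and between the higher-intensity arrays -0.39 and 0.40.

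S1pr4, a sphingosine 1-phosphate receptor of lymphocytes, was 1.60, 1.80 and 1.76 on the Foxp3Cre/+ arrays and 1.56, 1.38 and 1.74 on the Foxp3Cre/+Lkb1f/f arrays. It was 1.98, 2.05 and 2.10 on the Foxp3Cre arrays and 2.15, 2.03 and 1.96 on the Foxp3CreTgfbr2 f/f arrays. The knockout differences were -0.16 ± 0.18 and 0.0047 ± 0.13. All 6 arrays labelled for the Tgfbr2 experiment were above all 6 labelled for the Lkb1 experiment, the 4 higher-intensity arrays included, which held for 1 of 9 receptors and 0.338% of named genes (0.225% lay the other way). Labelled sex, Foxp3 Cre dosage and experiment cannot be told apart in that contrast, which was noticed after the values were seen and not tested.

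Ccr9, the small intestinal receptor, stayed near or below the array median, from -0.87 to 0.32 over the 12 arrays, with differences of 0.039 ± 0.27 and -0.039 ± 0.30. In each genotype the higher-intensity array had the highest Ccr9 value of the 3. Selplg had the smallest SD of the 9 over the 12 arrays, 0.09, with values from 6.32 to 6.62, and its differences were -0.048 ± 0.17 and -0.00097 ± 0.14. All of these had an adjusted p of 1.00 by limma.

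Over the 12 arrays the receptors were also set beside each other and beside other genes by Pearson's r, as a description over arrays that share 4 genotypes and 2 intensity sets. Ccr7 ran against Cxcr5 (r = -0.91, n = 12 arrays) and Gpr183 (r = -0.72), and Cxcr5 ran with Gpr183 (r = 0.86). Gpr15 was near 0 with Cxcr5 (0.053) and Gpr183 (-0.023). Among 11843 other named genes with a mean above the array median, Cxcr5 was most like Nrn1 (0.95), the chemokine receptor gene Cxcr3 (0.95) and Kctd17 (0.94), and Cxcr4 was most like Ets2 (0.97), Hsf2 (0.95) and Nr4a1 (0.92), an immediate early gene of antigen receptor signalling. Ccr7 was most like Ifngr2 (0.96), the interferon-γ receptor chain, Tubb2a (0.93) and Cux1 (0.92), S1pr1 most like Rasa3 (0.97), Add3 (0.96) and Treml2 (0.95), and Gpr183 most like Csf1 (0.95), Naip5 (0.94) and Arhgap26 (0.92). The genes most like Gpr15 were Dst (0.91), N4bp1 (0.88) and Fam3c (0.88). Those of S1pr4 were Ppa2 (0.95), Ash2l (0.95) and Cops5 (0.93), those of Ccr9 Xrcc4 (0.93), Fbxo9 (0.92) and Usp33 (0.92), and those of Selplg Reep3 (0.90), Csrp1 (0.89) and Birc3 (0.85).

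Genes that supply, read or regulate these receptors were followed as 6 lists, of which 79 genes were measured. None had an adjusted p under 0.05 in either comparison. The counts at 1.5-fold or more below stand beside 1.69% of named genes lower and 0.559% higher by as much in the Lkb1 comparison, and 0.424% and 0.167% in the Tgfbr2 comparison, and no list gene was higher by as much. Of 5 measured ligand genes, 1 was lower by 1.5-fold or more in the Lkb1 comparison, Cxcl13, the CXCR5 ligand of follicular stroma (-0.59 ± 0.40), and none was in the Tgfbr2 comparison. Cxcl13 was 1.72 on Foxp3Cre/+ replicate 2 and 0.88 and 0.44 on the other Foxp3Cre/+ arrays, and without replicate 2 the difference was -0.23 ± 0.37. Of 11 genes of sphingosine 1-phosphate and oxysterol metabolism, 1 was lower by as much in the Lkb1 comparison, Plpp3, a lipid phosphate phosphatase (-0.67 ± 0.65), and none was in the Tgfbr2 comparison. Plpp3 was 2.41 on Foxp3Cre/+ replicate 2 and between -0.56 and 0.62 on the other 11 arrays, and without that array the difference was 0.12 ± 0.31.

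Among 12 measured related receptors, Ccrl2, an atypical receptor that binds chemerin, was lower in the Lkb1 comparison. It was 2.34, 2.25 and 1.97 on the Foxp3Cre/+ arrays and 1.41, 0.60 and 1.47 on the Foxp3Cre/+Lkb1f/f arrays (-1.03 ± 0.27, adjusted p = 1.00 by limma), with no overlap, and the difference was -1.29 on the lower-intensity and -0.50 between the higher-intensity arrays. In the Tgfbr2 comparison the groups overlapped (0.30 ± 0.49). Cd69, whose product binds S1PR1 and removes it from the cell surface, differed by -0.33 ± 0.41 and -0.43 ± 0.31 (-0.16 and -0.45 on the lower-intensity arrays), and S1pr5 by 0.11 ± 0.23 and -0.052 ± 0.17.

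Of 28 genes of receptor signalling and desensitization, 24 had a difference below 0 in the Lkb1 comparison, where 56.1% of named genes had, and 13 in the Tgfbr2 comparison, where 48.2% had, with medians of -0.10 and 0.021 against -0.023 and 0.0052 over all named genes. Lower by 1.5-fold or more in both were Rgs1 and Rgs16, which encode GTPase-activating proteins that end signals of Gi-coupled chemokine receptors. Rgs1 was 4.56, 4.86 and 4.13 on the Foxp3Cre/+ arrays and 3.82, 3.21 and 3.08 on the Foxp3Cre/+Lkb1f/f arrays, and 4.54, 4.07 and 4.24 on the Foxp3Cre arrays against 3.76, 3.49 and 3.09 on the Foxp3CreTgfbr2 f/f arrays. The groups did not overlap in either experiment, and the differences were -1.15 ± 0.28 and -0.84 ± 0.22 (adjusted p = 1.00 in both, limma). Between the higher-intensity arrays they were -1.05 and -0.48, and without those arrays -1.20 and -1.02. The differences of Rgs16 were -0.90 ± 0.63, with overlap, and -1.47 ± 0.35, without. In the Lkb1 comparison Rgs16 differed by -0.46 on the lower-intensity and -1.78 between the higher-intensity arrays, and in the Tgfbr2 comparison by -1.78 and -0.85.

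Of 11 genes of selectin ligand synthesis, Gcnt1, the enzyme that builds the core-2 branch on PSGL-1, was lower by 1.5-fold or more in the Lkb1 comparison. It was 1.13, 1.82 and 1.13 on the Foxp3Cre/+ arrays and -0.15, 0.67 and 0.63 on the Foxp3Cre/+Lkb1f/f arrays, a difference of -0.98 ± 0.31 with no overlap (-1.22 on the lower-intensity and -0.50 between the higher-intensity arrays). In the Tgfbr2 comparison its difference was -0.42 ± 0.26. Of 12 transcription regulators, Ahr, Maf and Prdm1 were lower by as much in the Lkb1 comparison and Ahr alone in the Tgfbr2 comparison. Maf, a regulator of Cxcr5-expressing T cells, was 1.22 on Foxp3Cre/+Lkb1f/f replicate 1 and 1.08 on Foxp3CreTgfbr2 f/f replicate 1 and between 2.78 and 4.04 on the other 10 arrays. Its Lkb1 difference was -1.07 ± 0.57 with all arrays, -1.62 on the lower-intensity and 0.022 between the higher-intensity arrays. Prdm1 (Blimp-1) was 2.30, 2.55 and 2.49 on the Foxp3Cre/+ arrays and 0.31, 1.62 and 2.23 on the Foxp3Cre/+Lkb1f/f arrays (-1.06 ± 0.46), with -1.46 on the lower-intensity and -0.26 between the higher-intensity arrays. Klf2, which drives S1pr1 in T cells, was 2.07, 1.95 and 2.52 on the Foxp3Cre/+ arrays, 3.34, 1.75 and 1.71 on the Foxp3Cre/+Lkb1f/f arrays, 2.17, 2.04 and 2.60 on the Foxp3Cre arrays and 2.44, 1.44 and 1.45 on the Foxp3CreTgfbr2 f/f arrays. Klf2 differed by 0.086 ± 0.46 and -0.49 ± 0.31 and Foxo1, which acts upstream of Klf2 and Ccr7, by -0.14 ± 0.27 and -0.23 ± 0.15 (adjusted p = 1.00 in each, limma). In the Lkb1 comparison Klf2 was 0.53 on the lower-intensity and -0.81 between the higher-intensity arrays, and in the Tgfbr2 comparison -0.66 and -0.16. The high Klf2 array, Foxp3Cre/+Lkb1f/f replicate 1, was also the highest of the 12 for Ccr7 and Cxcr4.

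**Figure D3:**
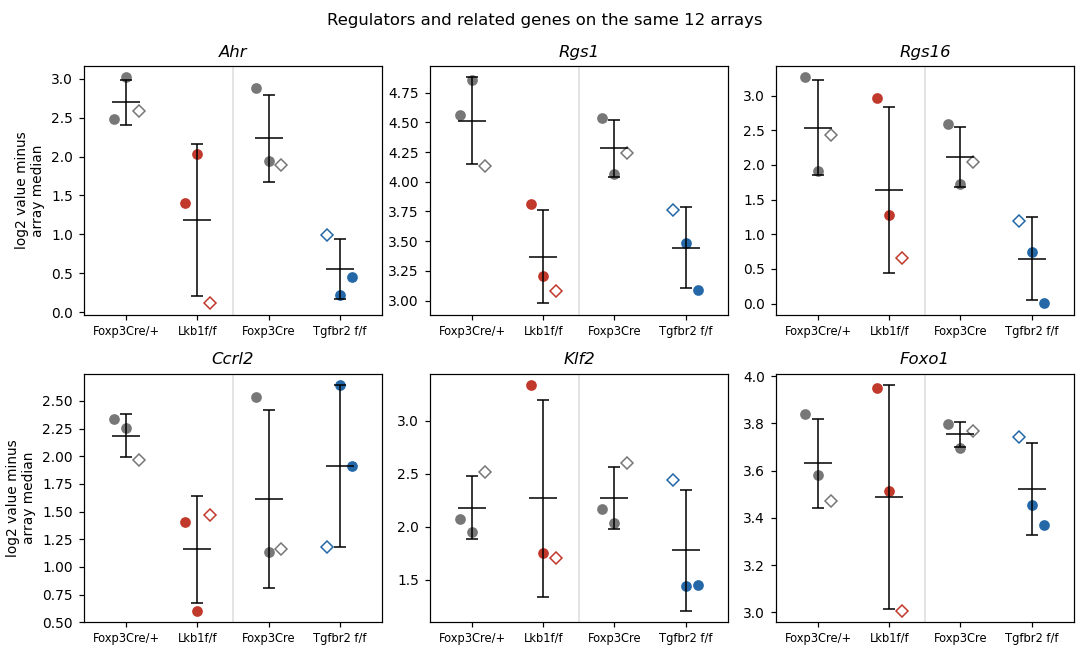
Log2 value minus array median (y axis, scale differs between panels) of Ahr, Rgs1, Rgs16, Ccrl2, Klf2 and Foxo1 by genotype (x axis, as in the plot of the 9 receptors), with filled circles for lower-intensity arrays, open diamonds for higher-intensity arrays and black bars for mean ± SD of 3 arrays. Ahr and Rgs1 separate knockout from control in both experiments, and Ccrl2 does in the Lkb1 experiment.

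Markers of other cells moved with part of these values. Of 15 macrophage and monocyte markers, 14 were highest of the 12 arrays on Foxp3Cre/+ replicate 2, where their mean was 3.64, against 1.44 and 0.48 on the other Foxp3Cre/+ arrays, 0.60 to 1.45 on the Foxp3Cre/+Lkb1f/f arrays and -0.08 to 0.44 in the Tgfbr2 experiment. Of 12 B cell markers, 10 were highest on Foxp3Cre/+ replicate 3 (mean 1.43), and their mean was 0.59 on Foxp3Cre/+Lkb1f/f replicate 3 and -0.66 to -0.26 on the other 10 arrays. B cells express Cxcr5, Ccr7 and Gpr183 as well, and Cxcr5 was 2.72 and 3.38 and Gpr183 2.18 and 3.01 on the arrays with the most B cell marker signal. Ccr7 was 3.75 and 3.11 on these arrays, the lowest of its genotype on each. On Foxp3CreTgfbr2 f/f replicates 2 and 3, where Cxcr5 was 3.38 and 3.37, the B cell mean was -0.41 and -0.50, and 10 of 12 markers were below the array median on each. The 6 measured naive CD4 T cell markers, Ccr7 among them, had a mean of 4.03 on Foxp3CreTgfbr2 f/f replicate 1 and of 3.11 and 3.01 on replicates 2 and 3. The mean was 0.25 to 1.27 for 9 dendritic cell markers and -0.55 to 0.42 for 8 markers of CD8 and NK cells over the 12 arrays. In these bulk samples fewer cells of a type and less RNA per cell cannot be told apart. The part of other cells in the values of Gpr15, Cxcr5 and Gpr183 was not tested. Without Foxp3Cre/+ replicate 2 the difference of Gpr15 in the Lkb1 comparison was -1.18, and without Foxp3Cre/+ replicate 3 it was -0.93.

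**Figure D4:**
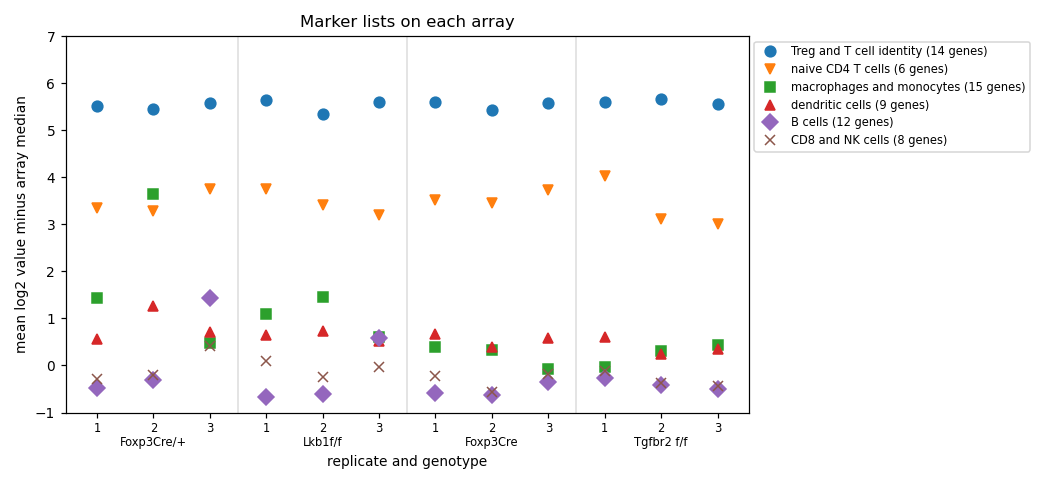
Mean log2 value minus array median (y axis) of 6 marker lists on each of the 12 arrays (x axis, replicate and genotype, with Lkb1f/f and Tgfbr2 f/f short for Foxp3Cre/+Lkb1f/f and Foxp3CreTgfbr2 f/f). The Treg and T cell identity list stays between 5.35 and 5.67, macrophage and monocyte markers stand out on Foxp3Cre/+ replicate 2 at 3.64 and B cell markers on Foxp3Cre/+ replicate 3 at 1.43.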

How the data were processed

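RNA of sorted CD4+YFP+ Treg cells was measured on 12 Affymetrix Mouse Gene arrays. The values are log2 expression values of 41345 transcript clusters, as deposited by the authors after processing in Agilent GeneSpring. How they were summarized and normalized, and on which genome build, is not stated. Each array was centred on its own median. Symbols come from the platform's annotation, brought up to date by RefSeq gene ID: 23521 transcript clusters had 1 symbol, 1820 several and 16004 none listed. Knockout and control were compared within each experiment by limma 3.58.1 in R 4.3.3 (lmFit, eBayes, genotype as the only term), and p-values were adjusted by Benjamini and Hochberg over every transcript cluster. A contrast over 12 arrays compared the 2 effects. The few arrays limit the precision. The limma step was tested on simulated data.

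The genes named were the 9 receptors, members of the 6 pathway lists at 1.5-fold or more with all arrays (at most 4 per list and comparison), Klf2, Foxo1, Cd69 and S1pr5, and the 3 genes most like each receptor. The members and lists were chosen with earlier results of these data known. Replicate numbers were checked as pairs. Deviations of same-numbered arrays had r of 0.39, 0.30 and 0.74 in the Lkb1 and -0.52, 0.23 and -0.57 in the Tgfbr2 experiment. In the Lkb1 experiment knockout replicate 2 had a higher r with control replicate 1 (0.45) than with control replicate 2. The 0.74 was that between the higher-intensity arrays. Those of the Tgfbr2 experiment, knockout replicate 1 and control replicate 3, had 0.72. These values thus do not settle whether the numbers pair arrays, and the block was tried as an alternative. Other alternatives were other scalings, priors and array weights, the intensity set as a block, a filter on level, the methods' t-test and leaving out arrays. Fold changes tabulated by the authors were not used. 1 gene of the naming rule is not reported here.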

Additional observations from a re-analysis of the deposited data

How the results depend on the processing

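With the replicate block, no receptor was called in either comparison, as without it. Gpr15 had an unadjusted p of 0.00055 in the Lkb1 and 0.025 in the Tgfbr2 comparison under the block (adjusted p = 1.00 in both, limma), and the count of transcript clusters at an unadjusted p under 0.05 went from 462 to 1483 and from 706 to 495. With values as deposited, no receptor had an unadjusted p under 0.05 by limma in either comparison. Without the arrays against their labelled sex, the unadjusted p of Gpr15 by limma was 0.017 in the Lkb1 and 0.053 in the Tgfbr2 comparison. Gpr15 was below 0 in both comparisons under every alternative that kept it. No alternative gave an adjusted p under 0.05 for any receptor.

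Signs of differences near 0 turned. With values as deposited, the Lkb1 differences of Cxcr5 and Gpr183 were 0.033 and 0.027 and the Tgfbr2 difference of S1pr4 -0.0031, and after quantile normalization they were 0.078, 0.051 and -0.029. With array weights, the Lkb1 differences of Cxcr4 and S1pr1 were 0.39 and 0.19, the Tgfbr2 difference of S1pr4 -0.013 and the difference of effects 0.76 for Cxcr4, 0.16 for Gpr15 and 0.020 for Selplg. Without the arrays against their labelled sex, the Lkb1 differences of Cxcr4, S1pr1 and Selplg were 0.0018, 0.28 and 0.023, the Tgfbr2 difference of S1pr4 -0.016, and the difference of effects 0.31 for Cxcr4 and 0.048 for Selplg. With the mean of all transcript clusters of a gene, the Tgfbr2 difference of Selplg was 0.059. The cause of these changes was not tested.

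Leaving out 1 array at a time, the Lkb1 differences ran from -0.38 to 0.63 for Ccr7, -0.12 to 0.25 for Ccr9, -0.80 to 0.44 for Cxcr4, -0.58 to 0.47 for Cxcr5, -0.35 to 0.12 for S1pr1, -0.50 to 0.34 for Gpr183 and -0.12 to 0.030 for Selplg. The Tgfbr2 differences ran from -0.36 to 0.24 for Ccr9, -0.25 to 0.25 for Cxcr4, -0.15 to 0.81 for Cxcr5, -0.92 to 0.038 for S1pr1, -0.046 to 0.046 for S1pr4 and -0.067 to 0.041 for Selplg. Gpr15 ran from -1.18 to -0.86 and from -1.02 to -0.56. With no change of sign, the Lkb1 difference of S1pr4 ran from -0.25 to -0.071 and the Tgfbr2 differences of Ccr7 and Gpr183 from -0.87 to -0.20 and from 0.11 to 1.05.

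Receptors lower by 1.5-fold or more numbered 0 with the filter on level in each comparison, which drops Gpr15. Between the higher-intensity arrays the comparison is 1 against 1, and no count is given. In the Tgfbr2 comparison 3 were lower and 2 higher without the arrays against their labelled sex, and 2 were lower and 2 higher with array weights. Leaving out 1 array at a time, the counts were 1 to 2 lower and 0 to 1 higher in the Lkb1 and 0 to 3 lower and 0 to 2 higher in the Tgfbr2 comparison. The count of 0 lower came without Foxp3Cre replicate 1, where Gpr15 was -0.56, and those of 3 lower and 2 higher without Foxp3CreTgfbr2 f/f replicate 1. With array weights or with 1 array left out, no share of all named genes was taken to set beside these counts. Values near the array median, those of Gpr15 and Ccr9, have the least signal over background.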
